A study of Mus musculus with 11 samples.

Results

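Sprr1a-high spots were the 10% of spots richest in Sprr1a transcripts in mouse liver sections taken 24 h after an acetaminophen (APAP) overdose. They were chosen by the Sprr1a values of the spots themselves: in each of the 2 sections at 24 h (A and B), spots under tissue were ranked by Sprr1a UMIs per 10000 UMIs, after removal of those with fewer than 800 genes or over 20% of UMIs from mitochondrial genes. A UMI (unique molecular identifier) counts 1 captured transcript. The top 10% were set against the bottom 50%, called Sprr1a-low spots here. This gave 418 Sprr1a-high spots, 253 in section A and 165 in section B, of 4169 passing spots at 24 h and 25136 in the whole series. The Sprr1a-low class held 2085 spots, 1261 and 824.

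The study followed mouse liver regeneration with Visium, an assay that captures polyadenylated RNA from a tissue section on a hexagonal grid of barcoded spots. The series held 11 libraries, each from a section: 3 uninjured (0 h), and 8 taken 24 h (2), 36 h (2) or 48 h (4) after APAP. Per the study's methods, male C57BL/6JCrl mice were fasted and received APAP by intraperitoneal injection, with no genetic change described, and uninjured livers served as the 0 h time point. APAP is turned into a reactive product by cytochrome P450 enzymes of hepatocytes near the central vein, and those hepatocytes die first. The methods give 1 mouse per time point for this assay, so sections of a time point may come from the same liver, and every p below covers only the spread between sections. Mouse and time cannot be told apart. A spot is wider than a cell, so more cells of a kind in a spot and more RNA per cell cannot be told apart either.

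Sprr1a encodes a small proline-rich protein that is cross-linked into the cornified envelope of stratified epithelia. Outside the skin it is known as a stress-induced gene, switched on in injured neurons during axon regeneration and in stressed heart muscle. AP-1, the family of Fos, Jun and related factors that binds TGAGTCA-type sites, is a known regulator of the SPRR genes.

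The gene lies on the minus strand of chromosome 3 (GRCm38, positions 92483952 to 92485895, ENSMUSG00000050359) among other genes of the epidermal differentiation complex. The 250 bases before the start given by RefSeq (GRCm38.p6) are printed here as those of the gene that chose the spots. Lor, which encodes the cornified envelope protein loricrin, and Hspa1b, which encodes an inducible HSP70 chaperone, were among the 15 genes with the largest rises and had a match to a searched motif. Capitals mark TGANTCA, a core of the AP-1 site, in Sprr1a and Lor, and GAANNTTC, a pair of inverted heat shock element units, in Hspa1b. Both motifs read the same on either strand and do not overlap each other here.
Sprr1a promoter, chr3:92485882-92486131, minus strand: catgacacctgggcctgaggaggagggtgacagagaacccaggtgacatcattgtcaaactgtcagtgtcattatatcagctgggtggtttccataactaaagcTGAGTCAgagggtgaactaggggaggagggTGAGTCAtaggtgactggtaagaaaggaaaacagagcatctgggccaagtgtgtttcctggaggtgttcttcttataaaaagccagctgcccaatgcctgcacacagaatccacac
Lor promoter, chr3:92083143-92083392, minus strand: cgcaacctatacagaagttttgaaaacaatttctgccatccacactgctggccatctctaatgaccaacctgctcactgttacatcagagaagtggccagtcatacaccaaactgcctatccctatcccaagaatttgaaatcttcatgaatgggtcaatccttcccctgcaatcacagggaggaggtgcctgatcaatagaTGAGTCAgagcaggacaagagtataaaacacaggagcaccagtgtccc
Hspa1b promoter, chr17:34959239-34959488, minus strand: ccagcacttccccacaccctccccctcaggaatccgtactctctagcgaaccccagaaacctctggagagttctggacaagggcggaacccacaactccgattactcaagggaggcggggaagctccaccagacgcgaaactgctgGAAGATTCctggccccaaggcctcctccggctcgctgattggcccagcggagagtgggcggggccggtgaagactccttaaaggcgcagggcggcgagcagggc

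The Sprr1a window held TGANTCA at 146 and 116 bases before the start, and the Lor window held it at 48 bases. Of 27025 promoters of the same length, 6.87% held TGANTCA and 6.78% held GAANNTTC. Among the 10 of the 15 largest rises that had a promoter in the table, 1 held TGANTCA and 3 held GAANNTTC, namely Hspa1b, Hspa1a and Ankrd1. Of the 12 of the 15 largest falls with a promoter there, 2 held TGANTCA and 2 held GAANNTTC. Of 12 matched heat shock chaperone genes, 5 held GAANNTTC, and of 12 matched AP-1 and immediate early genes none held TGANTCA. These matches are descriptions of the letters in the windows.

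The Sprr1a values themselves chose the spots and are given as a description. Over all passing spots Sprr1a stood at 2.16 and 2.15 UMIs per 10000 in sections A and B. In the 3 uninjured sections a total of 2, 2 and 0 Sprr1a UMIs were counted. Within the classes, the summed rate was 9.72 and 8.88 per 10000 in the high spots against 0.350 and 0.411 in the low spots, and 2.54 and 2.81 in the spots between them. A high spot carried a median of 15 Sprr1a UMIs in each section, with a range of 4 to 75 in A and 3 to 49 in B. The upper limit was not a gap: the last spots inside stood at 6.017 and 5.872 and the first outside at 6.013 and 5.861 per 10000. No Sprr1a UMI was found in 24.2% of the spots of A and 21.3% of those of B, so much of the low class lay at 0. Grid positions off the tissue held Sprr1a at 1.74 and 1.76 per 10000, near the section means, so a low rate in a spot does not show that its own cells made the transcript.

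Depth per spot was close in A and somewhat lower in the high spots of B. The median was 17530 UMIs per high spot and 17536 per low spot in A, and 18431 and 20407 in B. Median detected genes were 4218 in high and 3728 in low spots of A, and 4128 and 3874 in B. Mitochondrial UMIs made up a median of 1.63% and 1.77% in A and 2.16% and 2.08% in B. Spots at the tissue border made up 13.8% of high and 8.17% of low spots in A, and 10.9% and 10.4% in B.

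Sprr1a-high spots lay next to each other. Of the occupied grid positions beside a high spot, 24.5% in A and 19.3% in B were high spots as well, against 10.0% of all spots, and 4.34% and 5.50% of the positions beside a low spot. In A, 204 of the 253 high spots (80.6%) touched another, and in B 111 of 165 (67.3%). They formed 107 connected groups in A, the largest of 12 spots, and 89 in B, the largest of 7. Single high spots numbered 49 and 54. Groups of 5 or more held 35.2% of the high spots in A and 21.2% in B. Thinning every spot to 2000 UMIs lowered the shares beside high spots to 19.7% and 15.2%. At 36 h and 48 h the same ranking gave shares between 17.2% and 22.1%. These are shares of positions that depend on each other, so no interval is given. Sprr1a was also found off the tissue, at 1.74 and 1.76 per 10000. A part of transcript spread between positions in these shares, or in the ring and distance values below, was not tested.

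**Figure D1:**
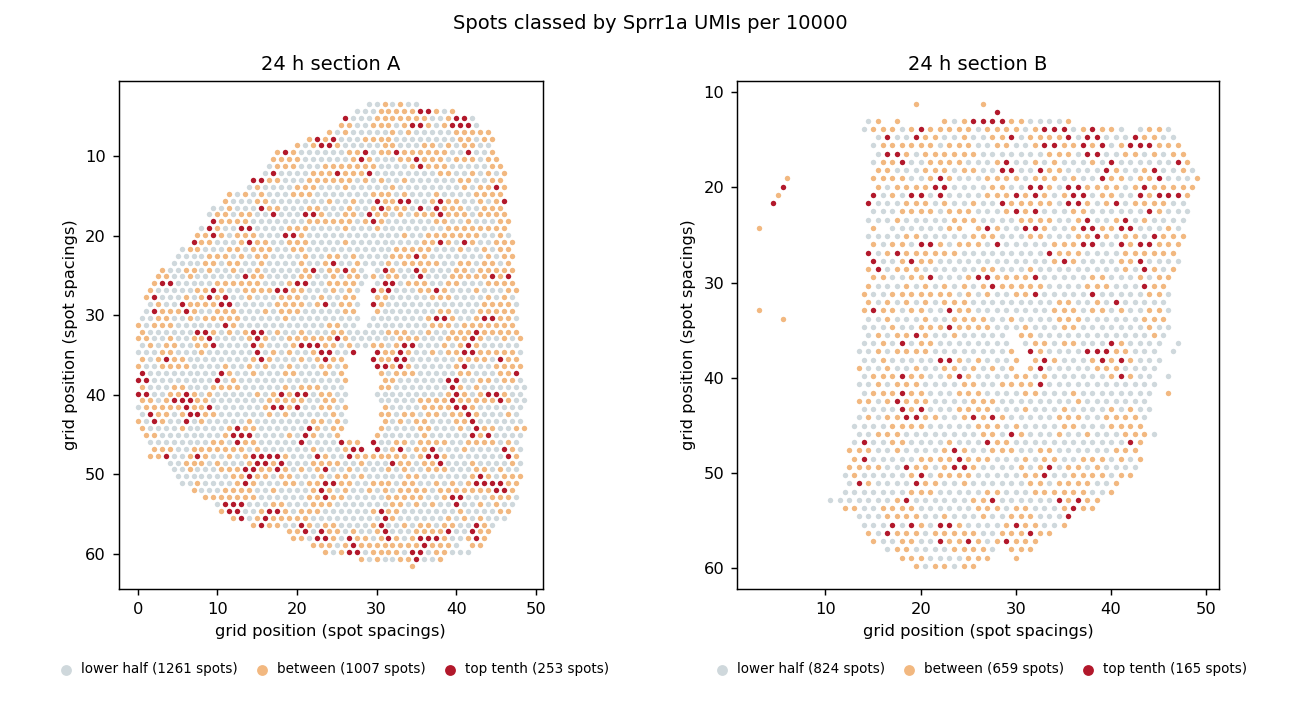
Positions of Sprr1a-high, Sprr1a-low and middle spots on the Visium grid of the 2 sections at 24 h. Axes are array column (x) and array row (y), scaled to spot spacings. High spots lie singly or in small groups over both sections: 80.6% of them touched another high spot in A and 67.3% in B. Single high spots numbered 49 in A and 54 in B. The share touching under random placement was not computed.

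UMIs of each class were summed per section and compared with edgeR's quasi-likelihood test, with the section as a block and the spread of class effects shared among the 8 injured sections. Levels are given as CPM, UMIs per 1000000 of the TMM-scaled total of a class, and a gene was called at a Benjamini-Hochberg adjusted p under 0.05. Sprr1a was left out. Since the spots were ranked on Sprr1a, a call means that a gene went with Sprr1a across spots. Of 13708 genes tested at 24 h, 1831 (13.4%) were called higher and 1916 (14%) lower in the high spots. With either section left out the counts fell to 669 higher and 735 lower (without A) and 731 and 756 (without B). Total-count scaling moved the median gene up by 0.345 on the log2 scale and gave 4295 higher and 681 lower, so differences are given relative to the median gene. For each list with calls in 1 direction alone, DESeq2 called none in the other, and at an unadjusted edgeR p under 0.05 the count was 0, or 1 for the actin, annexin, cycling and erythrocyte lists.

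The largest rises joined stress chaperones, AP-1 partners, matrix genes and an assortment of genes nearly silent in uninjured liver. Muc3, a membrane mucin of epithelia, stood at 2.56 and 0.986 CPM in the low spots of A and B and at 30.6 and 11.7 CPM in the high spots, a log2 fold change of 3.57 ± 0.31 (SE; edgeR adjusted p = 3.5e-06). Tac1, the precursor of the neuropeptide substance P, stood at 7.11 and 1.44 CPM in low spots and 57.5 and 5.39 CPM in high spots (log2 fold change 2.79 ± 0.27). Neither gene had a UMI in the 3 uninjured sections, where a count of 0 allows up to 0.0447 to 0.0664 CPM. The rise of Tac1 was not called without section A (1.89). Ankrd1, a muscle ankyrin repeat protein and a known YAP target, rose from 8.67 and 3.64 CPM to 54.3 and 20.6 CPM (2.59 ± 0.26). The genes without a described role, Gm15247 (log2 fold change 2.85 ± 0.20) and 4732463B04Rik (2.74 ± 0.27), were also far higher in A than in B: Gm15247 reached 174 CPM in the high spots of A and 18.1 CPM in those of B.

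Other large rises were of similar level in both sections. Mmp12, the macrophage elastase, rose from 12.8 and 18.7 CPM to 92.1 and 92.2 CPM (log2 fold change 2.58 ± 0.27). Ch25h, which makes 25-hydroxycholesterol, rose from 3.45 and 6.22 CPM to 26.2 and 28.8 CPM (2.57 ± 0.24). Thbs1, thrombospondin 1, rose from 14 and 13.2 CPM to 70.9 and 73.2 CPM (2.40 ± 0.17), and Akap12, a kinase scaffold, from 5.85 and 9.78 CPM to 33.8 and 41.8 CPM (2.31 ± 0.18). Tnc, the matrix protein tenascin C, rose from 10.7 and 8.57 CPM to 54.1 and 39.0 CPM (2.28 ± 0.34). For each of these genes both high-spot values lay above both low-spot values, and all uninjured values were below the low spots. The edgeR adjusted p-values ran from 1.5e-06 to 0.00075.

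**Figure D2:**
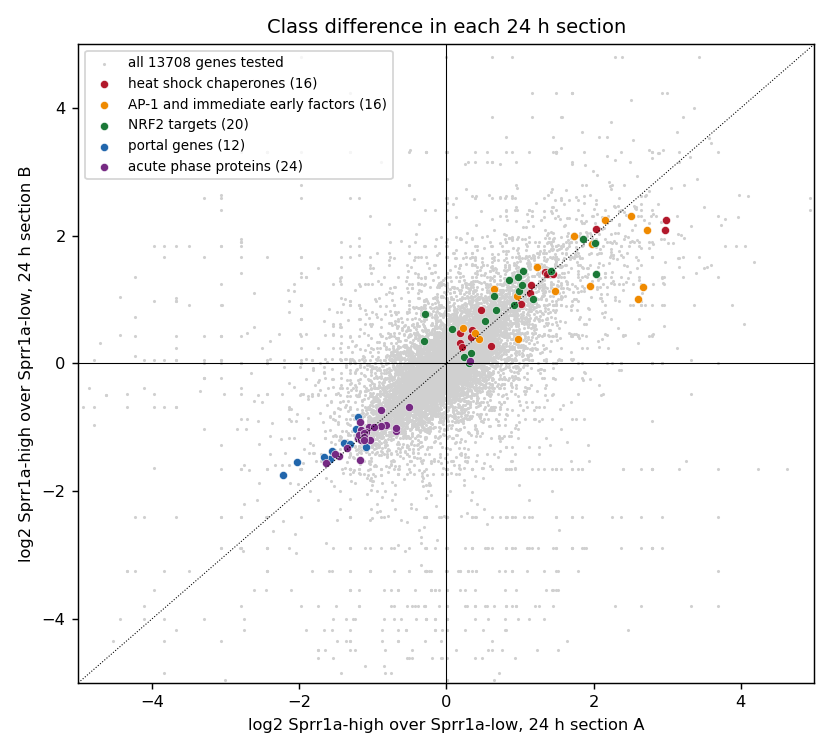
Log2 fold change of Sprr1a-high over Sprr1a-low spots in section B (y) against section A (x), 1 point per gene tested, with listed gene groups coloured; 45 genes outside the axes are not drawn. Heat shock and AP-1 genes lie above 0 and portal genes below 0 in both sections.

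AP-1 and other immediate early factors were higher in the high spots: 14 of 16 tested were called higher and none lower, with a median log2 fold change of 1.50, against a median of 0 over all genes (8 and 10 were called without A and without B). Fosl1 (Fra-1) stood at 6.17 and 9.48 CPM in low spots and 40.9 and 40.6 CPM in high spots, and at 0, 0.021 and 0 CPM in the uninjured sections, under the limit of 3 counts. Its log2 fold change was 2.42 ± 0.18 (edgeR adjusted p = 1.5e-06). Maff, a small Maf partner of AP-1 and NRF2, rose from 9.72 and 11.9 CPM to 55.4 and 58.9 CPM (2.41 ± 0.18). Atf3, a stress-induced repressor of the ATF family, rose from 20.7 and 18.1 CPM to 92.7 and 85.9 CPM (2.20 ± 0.18). Abundant members moved less: Jun had a log2 fold change of 0.91 ± 0.15, Jund 0.43 ± 0.11 and Ier2 0.39 ± 0.12. Jun was not called without B (0.65), and Jund and Ier2 were not called without A (0.46 and 0.54) or without B (0.38 and 0.22). The members not called were Fos and Klf4, named after their values were seen.

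Sprr1a is usually listed among genes induced in neurons that regrow an axon, and a list of 12 such genes was compared. Of these, 6 were measured at a testable level, and 5 were called higher: Atf3, Jun, Gadd45a, Klf6 and Fgf2, with fewer called without B. Atf3, Jun and Klf6 are also in the AP-1 list above and Gadd45a is in the p53 list below, so those calls are the same genes counted again. Sox11, Gap43, Gal, Ecel1, Stmn4 and Flrt3 were too low to test. Klf6, a zinc finger factor, rose from 12.4 and 22.9 CPM to 49.1 and 83.7 CPM (log2 fold change 1.93 ± 0.20). The relatives of Sprr1a were mostly too low to test: of 21 SPRR and cornified envelope genes in the files, 6 passed the filter, with Sprr2b, Sprr2i and Lor called higher (2 without A, 4 without B). Lor rose from 7.79 and 8.42 CPM to 51.2 and 35.2 CPM (2.43 ± 0.20), over 1.55 to 2.08 CPM in uninjured sections. Sprr2b stayed at or below 3.57 CPM and was not called without A (1.01), and reads of the near-identical Sprr2 genes may be split between copies, so that value is uncertain. Tgm2, a transglutaminase, stood at 197 and 185 CPM in low and 160 and 266 CPM in high spots and was not called (0.11 ± 0.15).

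Heat shock chaperones, which bind unfolded proteins, rose together. Of 16 tested, 13 were called higher and none lower, with a median log2 fold change of 1.04 (10 without A, 9 without B), and their summed level was 11779 against 6249 CPM in A and 8673 against 4428 CPM in B, over 3551 to 4119 CPM in uninjured sections. Hspa1b rose from 110 and 80.8 CPM to 870 and 382 CPM (log2 fold change 2.62 ± 0.18; edgeR adjusted p = 2.7e-06). Hspa1a rose from 66.0 and 54.7 CPM to 515 and 234 CPM (2.55 ± 0.19). The pair is near-identical in sequence, so their reads may be divided between them. Both lost their call in a fit of the 24 h sections alone (2.62 and 2.56; edgeR adjusted p = 0.061 and 0.094). Hspe1, the mitochondrial HSP10 co-chaperone, rose from 1174 and 817 CPM to 2614 and 1906 CPM (1.19 ± 0.11), and Hsp90ab1, a constitutive HSP90, from 552 and 431 CPM to 766 in both sections (0.65 ± 0.13; 0.47 and not called without B). Spots rich in heat shock transcripts overlapped with the Sprr1a-high spots: 45.8% of the high spots in A and 40.6% in B were in the top 10% of their section by summed heat shock UMIs, against 0.238% and 1.09% of low spots.

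Targets of NRF2, the factor that drives antioxidant and detoxifying genes, rose as well, with 14 of 20 called higher, none lower and a median log2 fold change of 0.99 (12 without A, 10 without B). Srxn1, which repairs oxidised peroxiredoxins, rose from 154 and 134 CPM to 622 and 496 CPM, over 31.8 to 34.4 CPM in uninjured sections (log2 fold change 1.95 ± 0.18; edgeR adjusted p = 1.4e-05). The ferritin genes Fth1 (1.09 ± 0.15) and Ftl1 (0.91 ± 0.14) and the peroxiredoxin Prdx1 (0.59 ± 0.12; 0.52 and not called without B) rose less. Fth1 reached 23832 and 19781 CPM in high spots against 10528 and 9855 CPM in low spots.

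Proteasome subunits showed a small shift across nearly the whole complex. Of 31 tested, 28 were called higher and none lower, with a median log2 fold change of 0.40, but 9 were called without A and 7 without B. Psmb3 rose from 183 and 148 CPM to 330 and 287 CPM (log2 fold change 0.90 ± 0.12; edgeR adjusted p = 8.2e-05). Psmb4 (0.48 ± 0.10) and Psmd8 (0.39 ± 0.10) were nearer the list's median. They were not called without A (0.48 and 0.42) or without B (0.46 and 0.34).

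**Figure D3:**
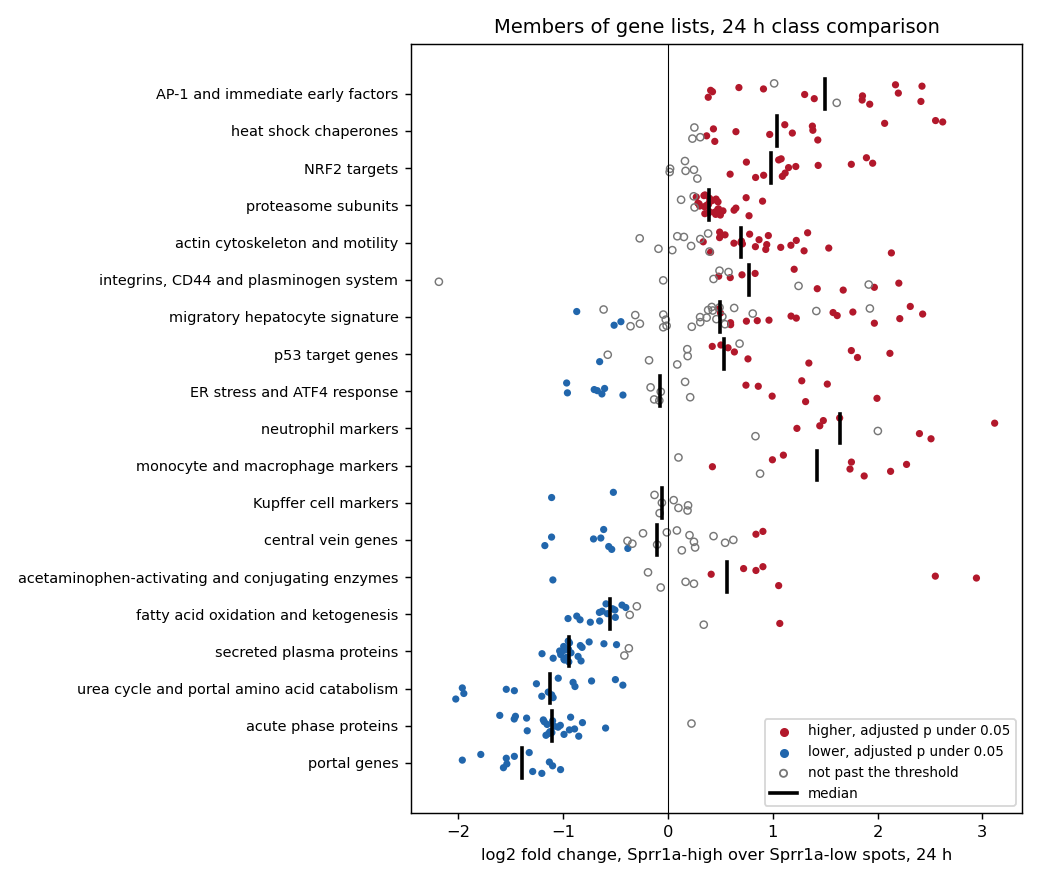
Log2 fold changes of Sprr1a-high over Sprr1a-low spots at 24 h for the tested members of gene lists, 1 point per gene with the list's median as a bar. AP-1 (median 1.50), heat shock (1.04) and NRF2 (0.99) lists lie above 0, and portal (-1.39), urea cycle (-1.12) and acute phase (-1.10) lists below it.

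Genes of the cytoskeleton, of adhesion and of pericellular proteolysis were higher in the high spots. In the actin and motility list 22 of 31 were called higher and none lower (13 without A, 10 without B). Actg1, a cytoplasmic actin, rose from 489 and 434 CPM to 1047 and 1288 CPM (log2 fold change 1.33 ± 0.15), over 222 to 230 CPM in uninjured sections, and Capg, an actin capping protein, from 6.01 and 5.84 CPM to 23.7 and 29.2 CPM (2.13 ± 0.31). Of 16 integrin, CD44 and plasminogen system genes, 9 were called higher (5 without A, 6 without B). Plaur, the urokinase receptor, rose from 4.55 and 9.93 CPM to 26.2 and 37.4 CPM (2.20 ± 0.19). Uninjured sections held at most 0.679 CPM of Plaur.

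Among YAP target genes 6 of 12 were called higher (4 without A, 5 without B and 11 with total-count scaling), with Ctgf (log2 fold change 1.74 ± 0.26), Cyr61 (1.43 ± 0.21) and Axl (0.77 ± 0.15) the most abundant. Ctgf rose from 29.0 and 35.6 CPM to 123 and 90.3 CPM. Of 9 annexins 3 were called higher, Anxa2, Anxa3 and Anxa7 (2 without B, 5 with total-count scaling). Anxa2, a calcium-dependent membrane binding protein, rose from 48.8 and 63.3 CPM to 151 and 236 CPM (1.76 ± 0.20). Its partner S100a10 rose by less (0.78 ± 0.16; 0.47 and not called without B), and S100a6 rose from 43.7 and 78.8 CPM to 135 and 272 CPM (1.71 ± 0.26), while S100a1 fell by 0.37 ± 0.12 on the log2 scale, not called without A (-0.35) or without B (-0.41). The study's signature of migratory hepatocytes, taken from its human data, had 42 tested mouse matches, of which 16 were called higher and 3 lower, with a median log2 fold change of 0.50 (11 higher and 0 lower without A, 11 and 1 without B, 24 and 0 with total-count scaling).

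Several signalling lists were split. Of 16 p53 target genes 9 were called higher and 1, Fas, lower, falling to 3 higher without A and 5 without B, with none lower in either. Gadd45a, a growth arrest gene, rose from 6.74 and 6.29 CPM to 29.4 and 27.3 CPM (log2 fold change 2.12 ± 0.19) and Bax from 110 and 114 CPM to 170 and 164 CPM (0.57 ± 0.13; 0.51 and not called without A), whereas Cdkn1a (p21), at 31.8 and 58.9 CPM in low and 55.8 and 86.8 CPM in high spots, was not called. In the ER stress and ATF4 list 7 of 20 were called higher and 7 lower. The higher members were Ddit3, Trib3, Asns, Chac1, Sesn2, Psat1 and Gdf15, most of them known ATF4 targets, and Psat1, an enzyme of serine synthesis, rose from 17.5 and 15.2 CPM to 71.6 and 58.6 CPM (1.99 ± 0.18). The lower members were Atf5, Hsp90b1, Pdia4, Pdia6, Herpud1, Sdf2l1 and Xbp1, most of which act in protein folding in the endoplasmic reticulum or its response to unfolded proteins, and Pdia6 fell by 0.67 ± 0.10 on the log2 scale. Total-count scaling gave 9 higher and 3 lower, and 4 and 4 were called without A.

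Cytokine and matrix genes were likewise mixed. Of 15 genes of gp130 cytokine signalling 5 were called higher (Lif, Il11, Jak2, Pim1 and Cebpb) and 6 lower, among them Stat3 (log2 fold change -0.41 ± 0.10; not called without A or without B, at -0.46 and -0.38) and Il6st, the gp130 receptor subunit itself (-0.56 ± 0.11), and total-count scaling gave 6 higher and 1 lower. With either section left out, 1 gp130 gene was called higher and 3 lower. Il11, an IL-6 family cytokine, rose from 1.57 and 2.88 CPM to 11.1 and 26.9 CPM (3.04 ± 0.30), with no UMI in uninjured sections. Of 13 chemokine ligands 9 were called higher and 3 lower (6 and 1 without A, 4 and 3 without B). Ccl7, which attracts monocytes, rose from 16.9 and 12.9 CPM to 83.9 and 47.5 CPM (2.13 ± 0.42), while Ccl9 fell by 0.53 ± 0.13, and neither was called without A (1.87 and -0.40). Of 20 matrix genes 11 were called higher and 2 lower (8 and 1 without A, 8 and 2 without B). Col4a1 rose from 110 and 112 CPM to 207 and 203 CPM (0.88 ± 0.17), and Fn1, fibronectin, which hepatocytes also secrete, fell from 1916 and 2578 CPM to 940 and 1301 CPM (-1.01 ± 0.12).

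Genes of periportal hepatocytes and of the secreted liver proteome were lower in the high spots. The study's portal list, drawn from its own spatial data and so not independent evidence, had all 12 tested members called lower, with a median log2 fold change of -1.39, in the full fit and without either section. Cyp2f2, a periportal cytochrome, stood at 409 and 324 CPM in low spots and 130 and 117 CPM in high spots, against 1524 to 1808 CPM in uninjured sections (-1.57 ± 0.23; edgeR adjusted p = 0.0004). All 16 genes of the urea cycle and portal amino acid catabolism were called lower (13 without A, 12 without B; median -1.12). Sds, serine dehydratase, fell from 200 and 672 CPM to 43.0 and 201 CPM (-1.96 ± 0.25), Hal, histidase, from 105 and 147 CPM to 35.0 and 52.0 CPM (-1.54 ± 0.22), and Cps1, the entry enzyme of the urea cycle, from 898 and 867 CPM to 440 and 415 CPM (-1.05 ± 0.17).

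The largest falls included enzymes of gluconeogenesis, steroid metabolism and aldehyde oxidation. Aldh1b1, a mitochondrial aldehyde dehydrogenase, fell from 120 and 61.5 CPM to 25.8 and 11.1 CPM (log2 fold change -2.31 ± 0.29; edgeR adjusted p = 0.00022), and Hsd17b6, a steroid dehydrogenase, from 107 and 69.9 CPM to 24.6 and 19.0 CPM (-2.02 ± 0.30). Pck1, the gluconeogenic phosphoenolpyruvate carboxykinase, fell from 356 and 1551 CPM to 88.1 and 420 CPM (-1.95 ± 0.28). G6pc, which releases free glucose, fell from 99.6 and 52.0 CPM to 32.1 and 17.4 CPM (-1.61 ± 0.32), over 508 to 562 CPM in uninjured sections, and was not called without A (-1.59). The lipid droplet protein gene Hsd17b13 (-1.78 ± 0.23), the amino acid transporter gene Slc3a1 (-1.70 ± 0.25) and the sterol hydroxylase gene Cyp39a1 (-1.82 ± 0.34) fell likewise. So did Tstd1 (-1.57 ± 0.16), Rida, which clears reactive enamines (-1.54 ± 0.21), Inhbe, a hepatokine of the activin family (-1.53 ± 0.21), and Mug2, a murinoglobulin whose reads may be shared with its near-identical relatives (-1.47 ± 0.18). Pck1 and Sds were higher in B than in A in both classes.

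Acute phase proteins, which the liver releases into plasma after injury, were lower in the high spots for 23 of 24 genes (22 without A, 20 without B; median log2 fold change -1.10); Orm3 was the exception. Hp, haptoglobin, stood at 20383 and 31732 CPM in low spots, 8829 and 14121 CPM in high spots and 2721 to 4084 CPM in uninjured sections (-1.19 ± 0.17; edgeR adjusted p = 0.00019). High spots were thus between low spots and uninjured liver for this gene, and Saa1 did the same (-1.60 ± 0.21), though its reads may be shared with the near-identical Saa2. Constitutive plasma proteins gave 22 of 24 called lower (median -0.95), with fewer called without A and without B. Apoe and Rbp4 were also lower in both sections but were not called. Alb, albumin, stood at 61383 and 72134 CPM in low spots, 31613 and 37538 CPM in high spots and 74024 to 78285 CPM in uninjured sections (-0.95 ± 0.19). Alb was not called without A (-0.95) or without B (-0.96). The summed plasma protein list took 145901 against 263059 CPM in A and 161176 against 298482 CPM in B.

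Of 15 hepatocyte transcription factors 7 were called lower and none higher, with 2 lower under total-count scaling, 4 without A and 0 without B. Hnf4a stood at 182 and 240 CPM in low and 125 and 156 CPM in high spots (log2 fold change -0.58 ± 0.11; -0.54 and not called without B). In fatty acid oxidation and ketogenesis 14 of 18 were called lower, against 6 with total-count scaling, 6 without A and 7 without B. Cyp4a10, a fatty acid hydroxylase and PPARα target, was the 1 member called higher, at 93.4 and 82.2 CPM in low and 208 and 161 CPM in high spots (1.07 ± 0.15).

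Pericentral genes were divided. In the study's central list, drawn from the same spatial data and not independent, 2 of 23 were called higher and 8 lower, and total-count scaling turned this to 11 higher and 3 lower, so no direction can be given for the list (3 and 2 without A, 2 and 2 without B). The 2 called higher, Cyp2e1 and Cyp3a11, oxidise APAP and were named after their values were seen. Cyp2e1 stood at 373 and 203 CPM in low and 648 and 413 CPM in high spots (log2 fold change 0.91 ± 0.15; edgeR adjusted p = 0.00043). Cyp3a11 stood at 155 and 61.6 CPM in low and 211 and 149 CPM in high spots (0.84 ± 0.20), not called without B (0.44). Of 12 APAP-activating and conjugating enzymes 7 were called higher and 1 lower, but 3 higher without A and 3 without B. Cyp1a2 rose from 95.4 and 22.1 CPM to 163 and 34.5 CPM (0.72 ± 0.17), not called without A (0.63) or without B (0.77), and the sulfotransferase Sult1a1 fell from 421 and 711 CPM to 184 and 356 CPM (-1.10 ± 0.14). Wnt-dependent pericentral genes gave 6 of 14 called higher and 1 lower, with 1 higher without A and 2 without B. The higher ones included Oat (1.10 ± 0.18; 0.60 and not called without A), while Glul, glutamine synthetase, stood at 29.0 and 12.8 CPM in low and 30.0 and 20.3 CPM in high spots and was not called. In uninjured sections these enzymes were far higher, Oat at 266 to 350 CPM and Glul at 263 to 288 CPM.

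Markers of infiltrating and other cells moved with the classes, and their part in the other differences was not tested. Neutrophil markers were called higher for 7 of 9 (7 without A, 4 without B), with a summed level of 91.3 against 33.9 CPM in A and 291 against 85.8 CPM in B, over 4.26 to 11.6 CPM in uninjured sections. S100a8 rose from 11.9 and 30.4 CPM to 32.3 and 105 CPM (log2 fold change 1.64 ± 0.16; edgeR adjusted p = 7.4e-06). Monocyte and macrophage markers were called higher for 8 of 10 (4 without A, 3 without B), with sums of 674 against 374 CPM and 722 against 325 CPM. Ly6c2, a monocyte marker, rose from 1.41 and 1.21 CPM to 5.88 and 7.29 CPM (2.28 ± 0.32), and Chil3, also of monocytes and macrophages, from 4.23 and 11.6 CPM to 20.1 and 47.5 CPM (2.12 ± 0.41). Csf1r, the receptor that marks most macrophages, stood at 50.3 to 52.3 CPM in low and 52.0 to 58.6 CPM in high spots and was not called (0.10 ± 0.13).

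In spots, the overlap with neutrophil markers was partial: 24.9% of the high spots in A and 19.4% in B were in the top 10% of their section by neutrophil marker UMIs, against 3.09% and 2.18% of low spots. Lipid-associated macrophage markers were called higher for 6 of 9 (3 without A, 3 without B) and lower for 1, Spp1, which fell from 196 and 163 CPM to 65.7 and 91.3 CPM (log2 fold change -1.21 ± 0.20; -0.84 and not called without A) and is also a marker of bile duct cells. Resident Kupffer cell markers did not rise: 2 of 9, Clec4f and Timd4, were called lower, and with total-count scaling 4 were called higher and 1 lower. Without A none and without B 1 was called lower. Their sums were 1099 against 1151 CPM in A and 1044 against 993 CPM in B.

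Markers of other cell types were mixed. Myofibroblast markers were called higher for 5 of 8 (2 without A, 2 without B), with sums of 304 against 140 CPM in A and 310 against 118 CPM in B, and Timp1 rose from 15 and 26.8 CPM to 60.9 and 124 CPM (log2 fold change 2.11 ± 0.22). Platelet markers were called higher for 3 of 4 and erythrocyte markers for 4 of 5, with fewer calls in both lists without A and without B. Erythrocyte markers summed to 629 against 256 CPM in A and 1939 against 491 CPM in B, and to 221, 1925 and 194 CPM in the uninjured sections. None of them was called higher with the top 5% of spots as the high class. Sinusoidal endothelial markers were divided, with 4 of 10 called higher, such as Lyve1 (1.40 ± 0.15), and 2 lower, such as Clec4g (-0.92 ± 0.15), with 3 and 1 without A and 1 and 1 without B. Stellate cell markers gave 1 higher and 4 lower of 10, and 4 higher and 1 lower with total-count scaling, and none were called without A or without B. Cholangiocyte markers gave 3 higher and 2 lower of 10 (3 and 0 without A, 0 and 2 without B), the higher ones including Krt8 (1.04 ± 0.18) and Krt18 (0.64 ± 0.18), keratins that hepatocytes also make. Neither was called without B (0.79 and 0.37), and Krt7, a duct keratin, was not called in the full fit. None of 7 mesothelial markers was called by edgeR or DESeq2 (1 at an unadjusted edgeR p under 0.05), and none of 6 T and NK cell markers by edgeR (1 at an unadjusted p under 0.05 and 1 called by DESeq2). Hepatocyte markers had the largest sum of the cell type marker lists in the high spots, at 66857 and 80510 CPM. The low spots held 128897 and 157149 CPM, and 6 of 7 markers were called lower in the high spots (4 without A, 3 without B).

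The remaining lists were small or divided. Of 16 cycling genes and of 15 genes of glycolysis and hexose transport, 5 each were called higher, with 0 and 1 called lower. The cycling genes called higher were 1 without A and 0 without B, and those of glycolysis 5 and 2, or 11 with total-count scaling. Lipid droplet protein genes gave 4 higher and 2 lower of 11, metallothionein and zinc transport genes 1 and 2 of 7, and mitochondrially encoded genes 3 and 2 of 13. Total-count scaling gave 7 and 1 for the lipid droplet list, and without B it gave 2 and 1 and the metallothionein list 0 and 2. No mitochondrially encoded gene was called without A or without B. In the full fit 9 of the 13 mitochondrially encoded genes were lower and 4 higher in both sections (median log2 fold change -0.30). A fit of the 24 h sections alone called 3 of them higher and 9 lower, and total-count scaling 4 and 0. Of 8 B and plasma cell markers 1, Ighm, was called higher (log2 fold change 2.20 ± 0.29).

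The classes were also set beside the uninjured sections. The genes were called for a difference between the classes, so which class lies farther from uninjured liver is partly fixed by that choice, and nothing is read from it. Of the 1831 genes called higher, the high spots lay above all 3 uninjured sections for 1546 and the low spots for 922, while the low spots lay below all 3 for 429. Of the 1916 called lower, the high spots lay below all 3 for 1392 and the low spots for 824, while the low spots lay above all 3 for 609. These are counts of values with no test, and the classes were compared with sections summed whole.

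Levels of single genes are given over 5 steps of Sprr1a. Fosl1 stood at 5.13 CPM in the spots of A with no Sprr1a UMI, 6.90 CPM above 0 to the median, 19.1 CPM from the median to the 90th percentile, 34.9 CPM to the 95th and 45.0 CPM in the top 5%. In B the values were 12.3, 7.85, 28.4, 39.9 and 40.0 CPM. Alb went the other way, at 61449, 60664, 46131, 32841 and 29246 CPM in A and 70238, 71983, 48580, 38076 and 35971 CPM in B. S100a8, the neutrophil marker, reached its level by the 90th to 95th percentile, at 32.3 CPM in A and 114 CPM in B, and stood at 31.0 and 93.5 CPM in the top 5%. These are descriptions, since Sprr1a set the steps.

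Spots that touched a high spot without being one were next compared with spots at least 3 grid steps from every high spot. The former, the ring, numbered 782 in A and 552 in B, and the latter 655 and 425. In the low class were 255 of the ring spots of A and 212 of those of B, against 440 and 292 of the far spots. This comparison thus shares spots with the one above. It also follows the Sprr1a ranking, and cannot tell neighbouring a high spot from a spot's own Sprr1a rank. Of 13462 genes tested, 491 (3.65%) were called higher and 729 (5.42%) lower in the ring. Total-count scaling gave 1464 higher and 268 lower, with the median gene moved by 0.12. Without A the counts were 274 and 284 and without B 153 and 248. With ring and far spots both limited to the low class, 19 higher and 48 lower were left, and 255 and 212 ring spots remained.

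The groups described above differed in the full ring too, with smaller medians, in a comparison that also follows the Sprr1a ranking. AP-1 factors gave 8 of 15 called higher (median log2 fold change 0.61), heat shock chaperones 9 of 16 (0.28) and NRF2 targets 9 of 20 (0.30). Portal genes gave 10 of 12 called lower (-0.57), plasma proteins 24 of 24 (-0.30) and acute phase proteins 21 of 24 lower and 1 higher (-0.33). By comparison, 2 of 31 proteasome subunits were called higher (0.10). Tnc had the largest rise among the more abundant genes (1.18, against 2.28 in the high spots), and other large rises were Chil3 (1.17), Gm15247 (1.15) and Srgn (1.13), a proteoglycan of blood cell granules. The largest falls were Spp1 (-1.42), Aldh1b1 (-1.32), Sds (-0.89), Cdh1 (-0.87; E-cadherin, chiefly of portal hepatocytes and bile ducts) and G6pc (-0.73). Aldh1b1 was not called without A (-1.07) or without B (-1.45), and Gm15247 was not called without A (0.44). With the low class alone on both sides, Spp1, Aldh1b1, Tnc, Chil3 and Gm15247 were not called.

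By grid distance, the summed heat shock level in A was 11779 CPM in the high spots, 8011 CPM at 1 step, 6548 CPM at 2 steps and 6567 CPM at 3 steps, and in B 8673, 5977, 5062 and 4957 CPM. Most of the fall was thus within 2 steps. Portal genes went the other way, from 10505 to 15590, 22566 and 24024 CPM in A and from 12028 to 18307, 23263 and 23870 CPM in B. Neutrophil markers fell from the high spots to 2 steps in both sections, but by little at the first step in B. There high spots held 291 CPM and the first step 280 CPM, before 113 CPM at 2 steps. In A they stood at 91.3, 60.2 and 34.2 CPM.

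**Figure D4:**
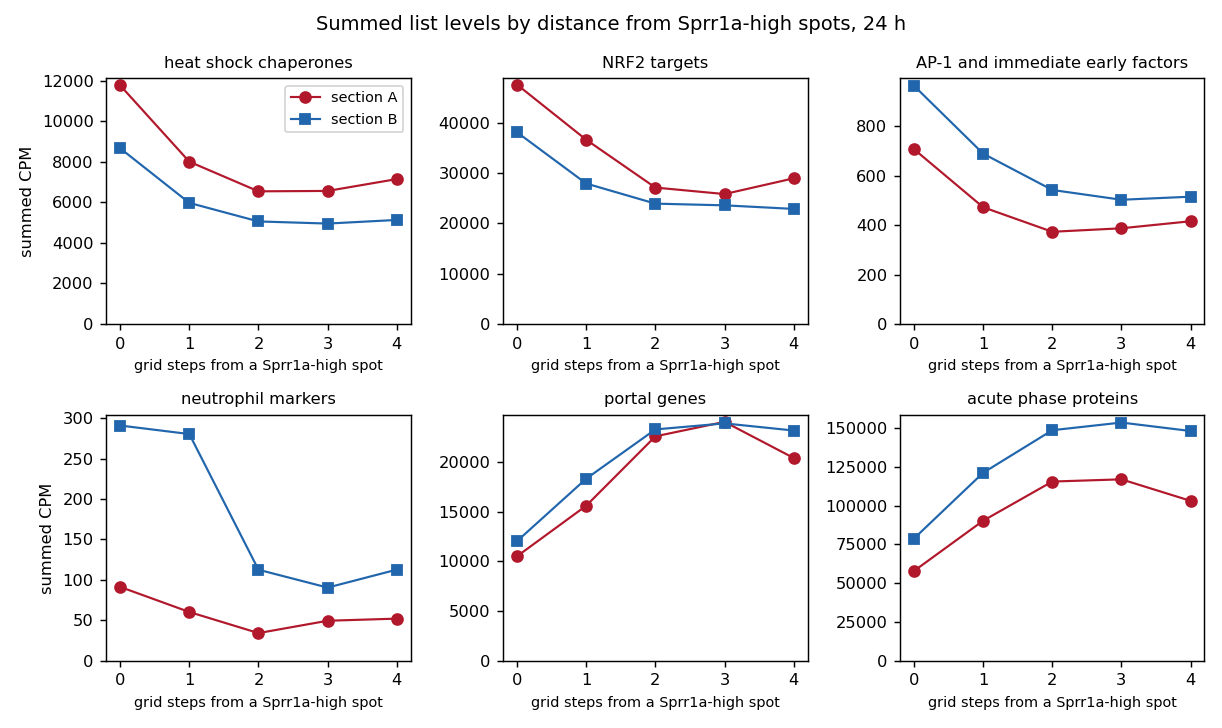
Summed CPM of gene lists at 24 h by grid distance from the nearest Sprr1a-high spot (0 is the high spots themselves), 1 line per section. Heat shock chaperones are highest at 0 (11779 CPM in A and 8673 CPM in B) and level off from 2 steps, and portal genes rise over the same steps.

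The same ranking was made in the 36 h and 48 h sections, where Sprr1a was scarcer, at 0.489 and 0.798 per 10000 in the sections at 36 h and 0.140 to 1.83 at 48 h. The classes were not alike at all times. High spots carried a median of 4 Sprr1a UMIs in both 36 h sections and of 9, 8, 15 and 2 in 48 h sections A to D, against 15 at 24 h. With ties at 0, the low class held 1264 of 1970 spots in 36 h section A and 1941 of 2421 in 48 h section D, all without a Sprr1a UMI. At 36 h 998 genes (7.28%) were called higher and 1433 (10.5%) lower in the high spots, but 2 and 0 when 36 h section A was left out. At 48 h, with 4 sections, 3572 (26.1%) were called higher and 3554 (25.9%) lower. Of the 1831 genes higher at 24 h, 1144 (62.5%) were also called higher at 48 h, which is 32.0% of the 48 h calls, and 87 were called lower. Of the 1916 lower at 24 h, 1512 (78.9%) were also called lower at 48 h, 42.5% of the calls there, and 41 higher.

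The falls of the portal programme were thus shared by the times while part of the rises was not. All 12 portal genes were called lower at 36 h and at 48 h (median log2 fold change -1.56 at 48 h), as were 24 of 24 plasma protein genes at 48 h. The calls at 36 h depended on 36 h section A, as given above. Heat shock chaperones had a median of -0.09 at 48 h, with 2 called higher and 5 lower, and proteasome subunits a median of -0.03. The difference between the class effects at 48 h and 24 h was tested in the same fit: 290 genes (2.12%) had a higher value at 48 h and 542 (3.95%) a lower one, falling to 13 and 54 without 24 h section A and to 62 and 183 without 24 h section B, and rising to 840 and 1530 without 48 h section D. Of 16 heat shock chaperones 12, 17 of 31 proteasome subunits and 8 of 20 NRF2 targets had a lower value at 48 h. For Hspe1 the log2 fold change was 1.19 at 24 h and -0.49 at 48 h, a difference of -1.68 (edgeR adjusted p = 1e-05). Hspa1b went from 2.62 to 0.46 (difference -2.16; edgeR adjusted p = 0.00077) and Lor from 2.43 to 0.25 (-2.18).

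Immune and pericentral genes also differed between the times. The list counts for the difference, here and above, are of the full fit and were not repeated with a section left out. All 9 Kupffer cell markers had a higher class effect at 48 h than at 24 h, and at 48 h all 9 were called higher, with a median log2 fold change of 0.78. Timd4, a marker of resident Kupffer cells, went from -1.11 at 24 h (-0.96 and not called without A) to 0.54 at 48 h (difference 1.65; edgeR adjusted p = 0.00077), and Spp1 from -1.21 to 1.17 (2.38; edgeR adjusted p = 0.00024). Of 23 central genes 10, and of the 12 APAP enzymes 7, had a lower class effect at 48 h. Cyp2e1 went from 0.91 to -0.32 (difference -1.23) and Cyp3a11 from 0.84 to -1.12 (-1.96). AP-1 factors had a median of 0.89 at 48 h against 1.50 at 24 h, with 10 called higher and 2 lower, and 4 of 16 had a lower class effect at 48 h. Fosl1 stood at 1.84 at 48 h, and its difference of -0.59 was not called (edgeR adjusted p = 0.2). Myofibroblast markers were called higher for all 8 at 48 h and neutrophil markers for all 9.

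**Figure D5:**
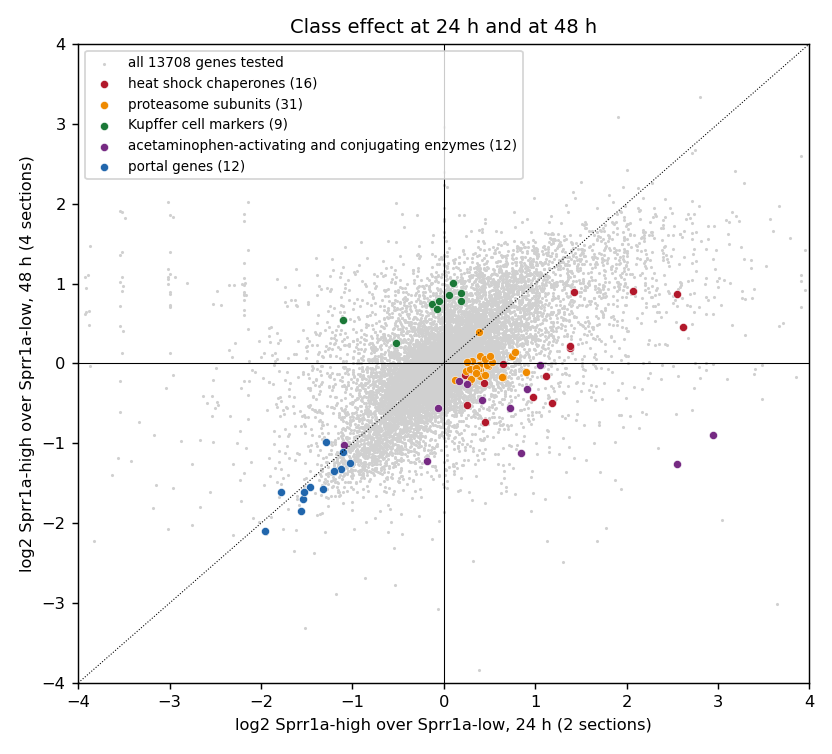
Log2 fold change of Sprr1a-high over Sprr1a-low spots at 48 h (y, 4 sections) against 24 h (x, 2 sections), 1 point per gene tested, with listed groups coloured; 56 genes outside the axes are not drawn. Portal genes are below 0 at both times, heat shock and proteasome genes are above 0 at 24 h and have medians of -0.09 and -0.03 at 48 h, and Kupffer cell markers are above 0 at 48 h.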

How the data were processed

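Polyadenylated RNA of snap-frozen liver sections was measured by Visium. The authors processed the reads with Space Ranger 1.0.0 and mm10 gene models, and the deposited values are unnormalised UMI counts of 31053 genes, with 4992 barcodes in each section, which all sections share by design. Passing spots of the 8 injured sections held 31292663 to 60856876 UMIs per section. Spot classes followed the rule given in the report, with ties at the median kept in the low class. Members, gene lists and tests were chosen with earlier results of these data known.

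Counts of the Sprr1a-high and Sprr1a-low spots were summed per section, and Sprr1a was removed. The 16 sums entered 1 fit in R 4.3.3 with edgeR 4.0.16 (filterByExpr with a minimum count of 10, TMM scaling, robust quasi-likelihood F-test, two-sided, Benjamini-Hochberg adjustment over all genes tested), with the section as a block, since both classes come from the same section, and 1 class effect per time. The 48 h minus 24 h difference was a contrast of the same fit. Ring and far spots were compared likewise. SE is the log2 fold change divided by the square root of its F statistic. Intervals are not given for shares of spots, which are not independent.

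Named genes were the 15 largest rises and falls that were called, had the same direction in both 24 h sections and averaged at least 20 CPM where higher, the 3 most abundant members and the called member with the largest change in each of 45 lists, and 5 rises and 5 falls for the ring. Of the listed members the text prints a choice, and some named genes are not reported here. Other names were chosen after their values were seen. Genes at 0 UMIs were given a limit of 3 counts. The scripts were tested on simulated data. In the class comparison 67 of 102 genes changed by 1 on the log2 scale were recovered, but only 15 of 98 changed by 0.5. There 7.87% of the calls were false. In the ring comparison the counts were 78 of 96 and 53 of 104, with 3.68% of the calls false. Small class effects are thus easily missed.

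Alternatives included DESeq2 1.42.0, other scalings, filters and class limits, thinned spots, no section block and each section left out. Leaving out 36 h and 48 h sections, and the alternatives for the 36 h, 48 h and difference results, were chosen after seeing the data. Tissue images were not used here. Promoters are the first start listed per symbol in the RefSeq table for GRCm38.p6, and gene coordinates came from a GRCm38 annotation matched by gene ID.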

Additional observations from a re-analysis of the deposited data

Results flagged for a closer look

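The class effect (log2 fold change of Sprr1a-high over Sprr1a-low spots) differed between 48 h and 24 h, by edgeR's test of the difference, for 28 of the 96 genes printed with a class effect. Over all genes tested the share was 6.07% (832 of 13708). Many printed genes were named for a large or called effect at 24 h, which favours a smaller effect at 48 h. Nothing is therefore read from the count of 28. Sections of the times may come from 1 mouse each, so time and mouse cannot be told apart, and 48 h section D held the least Sprr1a of the injured sections (0.140 per 10000). Among stress and AP-1 partner genes the difference was -2.16 for Hspa1b, -1.68 for Hspa1a, -1.68 for Hspe1, -0.66 for Hsp90ab1, -1.30 for Maff, -0.95 for Ier2, -1.55 for Gadd45a, -0.73 for Cebpb, -1.12 for Srxn1 and -0.59 for Prdx1. It was -1.01 for Psmb3 and -0.46 for Psmb4. Among the large rises at 24 h it was -2.18 for Lor, -1.85 for Gm15247, -1.79 for Akap12 and -1.59 for Ankrd1. For hepatocyte enzymes it was -1.96 for Cyp3a11, -1.73 for Cyp4a10, -1.28 for Cyp1a2 and -1.23 for Cyp2e1. It was -0.90 for Srgn and -0.74 for Lyve1. The difference was positive for Spp1 (2.38), Timd4 (1.65), Tstd1 (0.97), Csf1r (0.69), Pdia6 (0.57) and Il6st (0.48).

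At 48 h the class effect of Atf3 was 1.63, 1.60 and 1.74 in sections A to C and 0.73 in section D, a gap of 0.861 of the whole range. The test was made for 12 genes, the neighbour shares and the Sprr1a rate of the sections, and chance flags about 1 in 20 such groups.

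Sprr1a was found at grid positions outside the tissue, at 1.74 UMIs per 10000 in 24 h section A and 1.76 in section B, against at most 0.000956 in the uninjured sections.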

How the results depend on the processing

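Of the 96 genes printed with a class effect at 24 h, 92 were called, and the direction turned for 2 that were not, both without 24 h section B: Tgm2 (range -0.30 to 0.51 with each section left out) and Csf1r (-0.012 to 0.21). Without the replicate block of the section, the class comparison at 24 h gave 378 higher and 330 lower, the ring comparison 0 and 0 (edgeR; 184 and 131 at an unadjusted p under 0.05), 36 h 0 and 0 (1003 and 1102), 48 h 1925 and 1973, and the difference 0 and 1 (427 and 640); 49 of the 92 called genes and every gene named for the ring were then not called. With total-count scaling the counts were 4295 and 681 at 24 h, 1464 and 268 in the ring, 3312 and 487 at 36 h, and 7894 and 1355 at 48 h. In the ring, DESeq2 called 206 and 340, far spots from 2 steps on gave 826 and 1263, and the low class alone 19 and 48. With each section left out in turn, counts of higher and lower genes ran from 669 to 2321 and 735 to 2384 at 24 h, 153 to 582 and 248 to 840 in the ring, 2 to 1525 and 0 to 1962 at 36 h (1088 and 1334 at an unadjusted p under 0.05 without 36 h section A), and 13 to 840 and 54 to 1530 for the difference. The high spots' share beside high spots over their overall share averaged 2.19 at 24 h and 1.74 after thinning. The causes of these changes were not tested.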

Other observations

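Portal genes summed to 10621 CPM in the 49 single high spots of A and to 9565 CPM in the 89 high spots of connected groups of 5 or more. In B they summed to 11414 CPM in 54 single spots and 12234 CPM in the 35 spots of larger groups. Heat shock chaperones summed to 10720 and 11346 CPM in A and to 8501 and 8813 CPM in B, in the same order. Neutrophil markers were at 92.8 and 94.6 CPM in A but at 217 and 342 CPM in B. These are values of summed spots with no replicate and no test.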
